A study of Mus musculus with 4 samples.

Results

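The genes described here encode the proteasome, with its assembly chaperones, activators and inhibitor. They were chosen by symbol alone, as all genes of the array's annotation whose symbol begins with Psma, Psmb, Psmc, Psmd, Psme, Psmf or Psmg followed by a digit, leaving out the immunoproteasome genes Psmb8 and Psmb9. The rule itself used no measured value, though the members were chosen with earlier results of these data known. It gave 47 of the 18193 genes on the array. Of these, 45 were measured, in that their mean intensity reached 16.9, the median of all probe sets, as it did for 11392 genes in all. The 2 others were Psma8, the testis form of an alpha subunit, with intensities of 6.79 to 7.48, and Psmb11, the thymus form of a catalytic subunit, with 9.25 to 12.0. The symbols Psmc3ip and Psme3ip1 match the rule but name proteins that bind a subunit or an activator and are not subunits, which leaves 43 measured proteasome genes without them.

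The proteasome is the protease that degrades ubiquitin-tagged proteins in the cytosol and nucleus. Its barrel, the 20S core, is built of alpha rings, which gate the entry, and beta rings, which hold the catalytic sites, and it is capped by the 19S particle, in which ATPases unfold the substrate and non-ATPase subunits bind and remove ubiquitin. In mammalian cells the subunit genes are known to be transcribed together, and the transcription factor NRF1, encoded by Nfe2l1, raises them when the protease is inhibited. In the intestine, proteasomal degradation is also the step that removes beta-catenin after the Apc complex has marked it.

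Expression was measured in mouse intestinal organoids, epithelial cultures grown in Matrigel, in 4 groups of 1 array each: Tacc3 fl/fl at day 6, Tacc3 wt/wt at day 6, Tacc3 fl/fl at day 4 and Tacc3 wt/wt at day 4. All 4 cultures received 4OHT (4-hydroxytamoxifen) for 24 hours, which the series text says was given to recombine Apc and Tacc3, and the fl allele of Tacc3, a spindle protein gene, is the one that can recombine. The sample descriptions call the day 6 cultures Apc-deficient and the day 4 cultures normal, whereas the series text has both genes recombined before either day, so the Apc state at day 4 is not settled and a difference between the days cannot be told apart from a difference in Apc. The sources used here do not give the recombinase, the strain, the floxed exons, the number of mice or wells behind an array, or the event from which the days of the titles were counted. With 1 array per group there is no replicate check and no error on any value. Differences below are on the scale log2(intensity + 16), which understates the differences of dim genes, and a gene was counted where its difference reached 1, that is 2-fold.

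Tacc3 was lower on the arrays labelled fl/fl, with an intensity of 49.7 in fl/fl and 167 in wt/wt organoids at day 6 and 59.8 in fl/fl and 184 in wt/wt organoids at day 4; whether the probe set lies in the deleted exons was not checked. Apc had 150 in fl/fl and 122 in wt/wt at day 6, against 53.5 in fl/fl and 27.9 in wt/wt at day 4. All 9 epithelial markers were measured, from Epcam to Cdx2, and their summed intensity was 28189 in fl/fl and 25819 in wt/wt at day 6, against 22478 in fl/fl and 17257 in wt/wt at day 4. Of 9 mesenchymal markers, Vim and Acta2 alone were measured, with a sum of 41.9 to 81.3, and of 6 immune markers Cd3e alone, at 13.7 to 27.1. For Actb, a control for cDNA length, the 5' probe set over the 3' one gave 0.261 in fl/fl and 0.180 in wt/wt at day 6, against 0.0627 in fl/fl and 0.0610 in wt/wt at day 4. The 95th percentile of intensity was 439.0 and 424 on the day 6 arrays of fl/fl and wt/wt, against 361 and 303.0 on their day 4 arrays. The median of the hybridization controls, cRNA added before hybridization, ran the other way, at 774 in fl/fl and 1033 in wt/wt at day 6, against 1932 in fl/fl and 2752 in wt/wt at day 4. These measures separate the days. At each day the epithelial sum and the 95th percentile were also higher, and the hybridization controls lower, in fl/fl than in wt/wt. Their part in the values below was not tested, and in bulk RNA more cells of a type and more RNA per cell cannot be told apart.

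The proteasome genes lay above most genes at day 6 relative to day 4, in both genotypes. Their median difference, day 6 minus day 4, was 0.61 in fl/fl and 0.66 in wt/wt organoids, against 0.00 and 0.17 for all measured genes. Among the 1454 genes at least as bright as the median proteasome gene, the medians were 0.05 in fl/fl and 0.34 in wt/wt. Of the 45 proteasome genes, 34 had a difference above 0 in fl/fl (75.6%, beside 49.9% of all measured genes) and 37 in wt/wt (82.2%, beside 57.5%). In both genotypes 33 lay above 0 (73.3%, beside 44.2% of all genes). No proteasome gene was 1.5-fold lower at day 6 in either genotype, where 11.7% of all genes in fl/fl and 13.1% in wt/wt were. None was 2-fold lower, beside 2.90% in fl/fl and 2.97% in wt/wt.

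At 2-fold, 11 proteasome genes were higher at day 6 in fl/fl (24.4%, beside 12.2% of all measured genes) and 11 in wt/wt (24.4%, beside 18.3%). Among the 1454 genes at least as bright as the median proteasome gene, 229 were 2-fold higher in fl/fl and 316 in wt/wt. These shares lie between those of all genes and of the proteasome genes. In wt/wt the share of the bright genes was nearer to the 24.4% of the proteasome genes than to the 18.3% of all genes. At 1.5-fold the counts were 23 in fl/fl (51.1%, beside 24.2%) and 25 in wt/wt (55.6%, beside 32.5%). The 8 genes that were 2-fold higher in both genotypes were Psma1, Psma2, Psma5, Psmb1, Psmb2, Psmc6, Psmd12 and Psmg2 (17.8%, beside 9.37% of all genes), and none was 2-fold lower in both, beside 1.35%. After quantile normalization, 5 genes in fl/fl and 2 in wt/wt were still 2-fold higher and none in both genotypes, while the median of the proteasome genes lay above that of all genes, which became -0.12 in fl/fl and -0.13 in wt/wt, by 0.47 and 0.33.

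**Figure D1:**
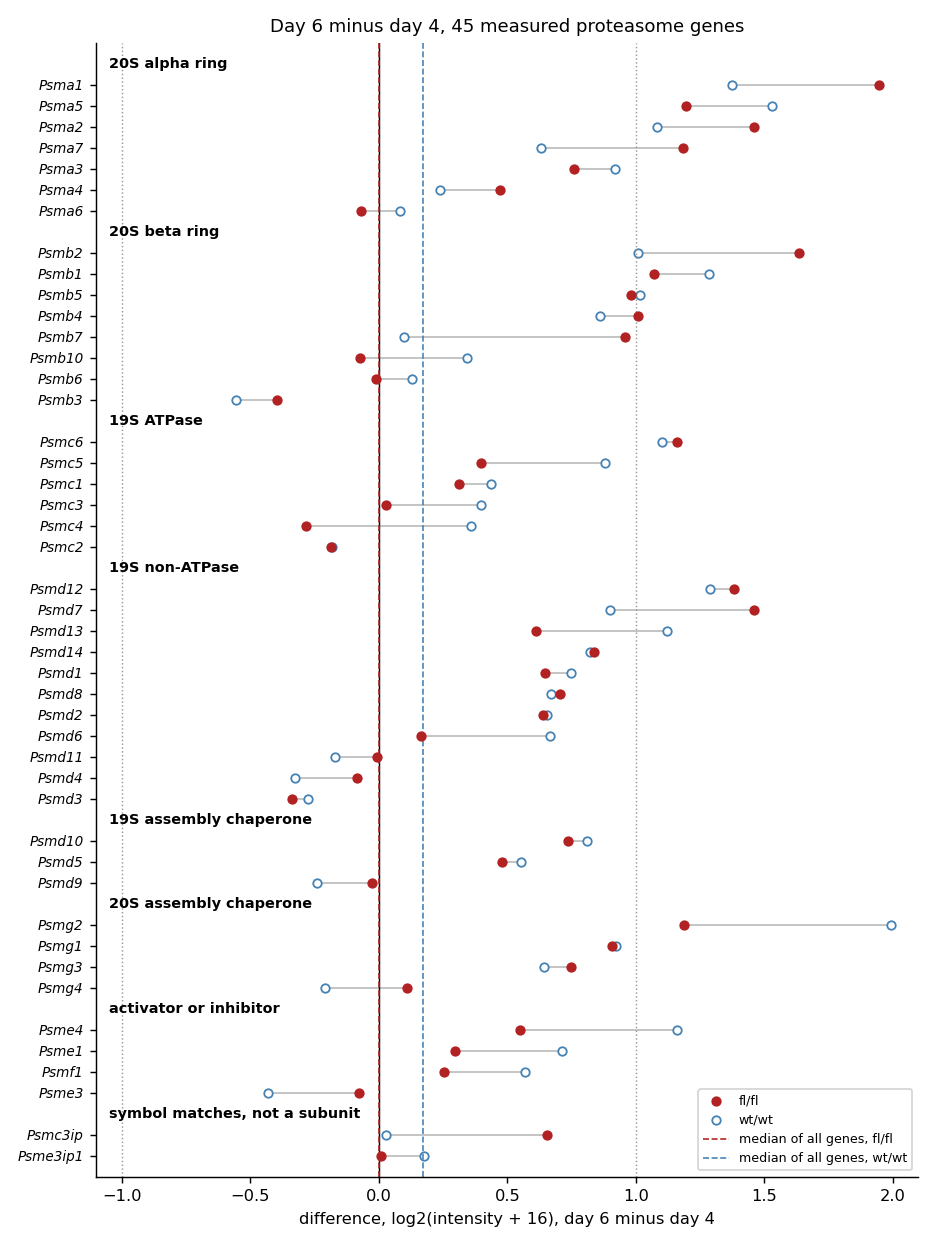
Difference between the days for the 45 measured proteasome genes, grouped by role. The x axis is log2(intensity + 16) at day 6 minus day 4, filled red points are fl/fl and open blue points wt/wt, each from 1 array per day, dotted lines mark 2-fold, and dashed lines the median of all genes (0.00 in fl/fl, on the zero line, and 0.17 in wt/wt). Most points lie right of both lines, and Psmb3 lies furthest left at -0.40 in fl/fl and -0.56 in wt/wt.

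The alpha ring had the highest median of the role groups, 1.18 in fl/fl and 0.92 in wt/wt over 7 measured genes, of which 4 in fl/fl and 3 in wt/wt were 2-fold higher at day 6. Psma1, an alpha ring subunit, had intensities of 443 in fl/fl and 296 in wt/wt at day 6, against 103 in fl/fl and 104 in wt/wt at day 4. The differences were 1.95 in fl/fl and 1.38 in wt/wt, and both day 6 arrays lay far above both day 4 arrays, while the genotypes were level at day 4. Psma2, of the same ring, had 1160 in fl/fl and 820 in wt/wt at day 6, against 411 in fl/fl and 379 in wt/wt at day 4. Psma5 had 1273 in fl/fl and 1203 in wt/wt at day 6, against 546 in fl/fl and 406 in wt/wt at day 4. For both genes the days did not overlap, with differences of 1.46 in fl/fl and 1.08 in wt/wt for Psma2 and of 1.20 in fl/fl and 1.53 in wt/wt for Psma5. Psma7 was 2-fold higher in fl/fl, at 1.18, and not in wt/wt, at 0.63, and the difference between the genotypes was not tested. On 1423568_at, the other Psma7 probe set, it was 2-fold higher in both, at 1.54 in fl/fl and 1.18 in wt/wt. Psma3 followed with 0.76 in fl/fl and 0.92 in wt/wt, and Psma4 with 0.47 and 0.24 in the same order. Psma6 was the alpha gene with much the same signal on all 4 arrays, 1565 in fl/fl and 1533 in wt/wt at day 6, against 1644 in fl/fl and 1447 in wt/wt at day 4.

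The beta ring was split. Its 8 measured genes had a median of 0.97 in fl/fl and 0.60 in wt/wt, and 3 in each genotype were 2-fold higher at day 6. Psmb2, a structural beta subunit without a catalytic site, had 494 in fl/fl and 287 in wt/wt at day 6, against 148 in fl/fl and 134 in wt/wt at day 4. Psmb1, also structural, had 832 in fl/fl and 675 in wt/wt at day 6, against 387 in fl/fl and 268 in wt/wt at day 4. Their differences were 1.63 in fl/fl and 1.01 in wt/wt for Psmb2, and 1.07 in fl/fl and 1.29 in wt/wt for Psmb1. Psmb4, another structural gene of this kind, had 1263 in fl/fl and 868 in wt/wt at day 6. At day 4 it had 620 in fl/fl and 471 in wt/wt, differences of 1.01 and 0.86. On 1438984_x_at, the other Psmb4 probe set, the differences were 0.07 in fl/fl and 0.64 in wt/wt. Psmb3, structural as well, ran the other way, with 1506 in fl/fl and 1389 in wt/wt at day 6, against 1988 in fl/fl and 2053 in wt/wt at day 4. Its other probe set did not follow, as described further on.

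The 3 constitutive catalytic subunits differed from each other. Psmb5, which carries the chymotrypsin-like site, had 658 in fl/fl and 397 in wt/wt at day 6, against 325 in fl/fl and 188 in wt/wt at day 4. Its differences of 0.98 in fl/fl and 1.02 in wt/wt lie on either side of 2-fold and cannot be told apart. Psmb6, with the caspase-like site, had 819 in fl/fl and 715 in wt/wt at day 6, against 825 in fl/fl and 653 in wt/wt at day 4, so that the days overlapped. Psmb7, with the trypsin-like site, had a dim probe set, at 59.7 in fl/fl and 38.9 in wt/wt at day 6, against 23.0 in fl/fl and 35.3 in wt/wt at day 4. The fl/fl array of day 4 was the low one, which gave a day difference of 0.96 in fl/fl and 0.10 in wt/wt. Psmb10, the interferon-inducible counterpart of Psmb7, had 254 in fl/fl and 235 in wt/wt at day 6, against 268 in fl/fl and 182 in wt/wt at day 4. The other inducible subunits, which the symbol rule leaves out, were low: Psmb9 had 39.0 in fl/fl and 25.2 in wt/wt at day 6, against 28.8 in fl/fl and 29.7 in wt/wt at day 4, and Psmb8, at 11.4 to 18.9, was not above the filter.

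**Figure D2:**
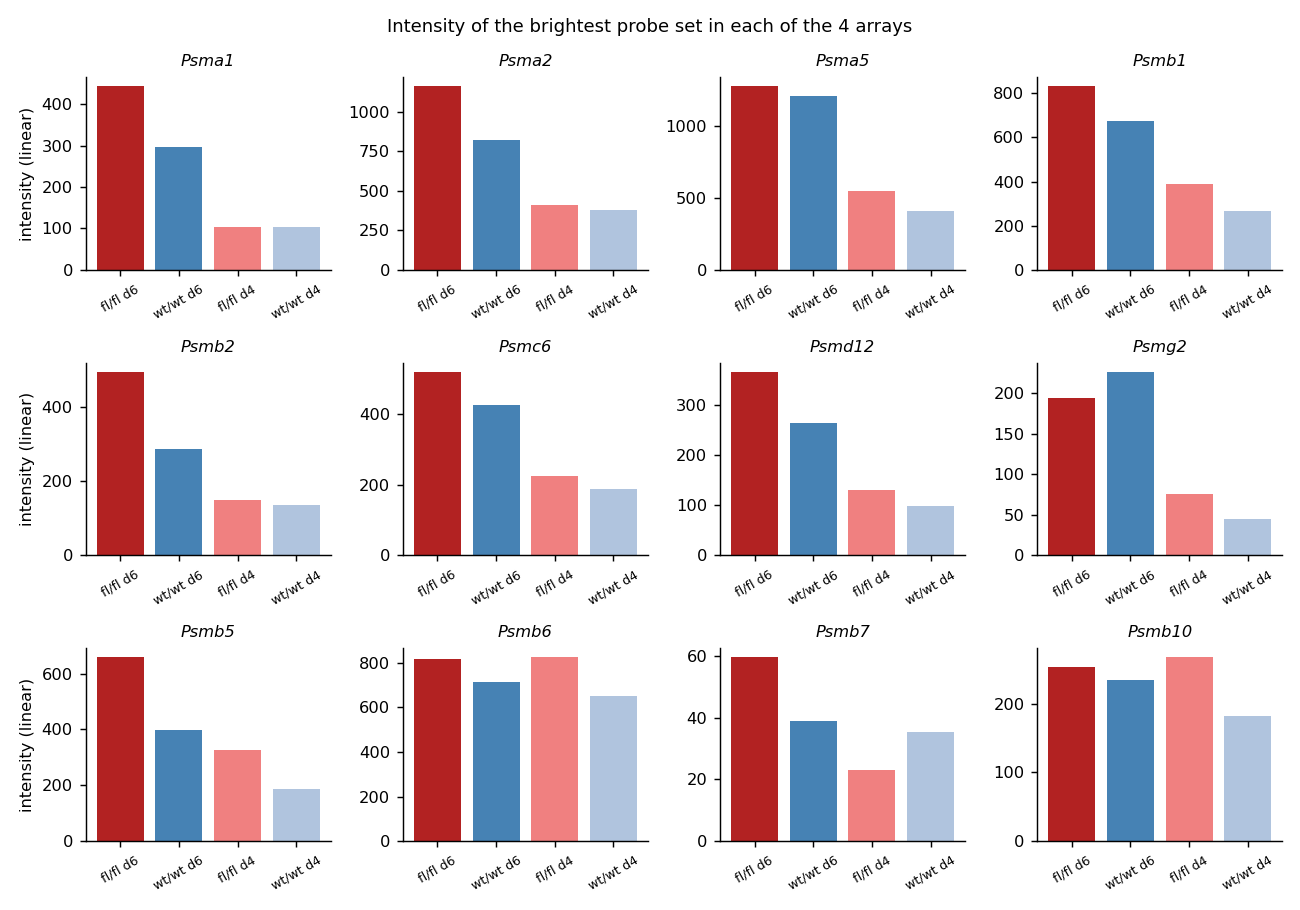
Intensity on each of the 4 arrays for the 8 genes that were 2-fold higher at day 6 in both genotypes and, in the bottom row, for the catalytic subunits Psmb5, Psmb6 and Psmb7 and the inducible Psmb10. The y axes are linear, start at 0 and differ between panels, each bar is 1 array, red is fl/fl and blue wt/wt, with day 6 dark and left of day 4. The day 6 bars exceed both day 4 bars in the upper 8 panels and for Psmb5, whereas the bars of Psmb6 and Psmb10 overlap between the days.

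Of the 6 ATPases that form the unfolding ring of the 19S particle, Psmc6 was the one 2-fold higher at day 6 in both genotypes. It had 518 in fl/fl and 423 in wt/wt at day 6, against 223 in fl/fl and 189 in wt/wt at day 4, differences of 1.16 and 1.10. Psmc5 had differences of 0.40 in fl/fl and 0.88 in wt/wt, Psmc1 of 0.31 and 0.44, and Psmc3 of 0.03 and 0.40, in the same order of genotypes. Psmc2 gave -0.19 in fl/fl and -0.18 in wt/wt. Psmc4 had 768 in fl/fl and 1152 in wt/wt at day 6, against 940 in fl/fl and 894 in wt/wt at day 4, so that its wt/wt array of day 6 was the high one and its day difference was -0.29 in fl/fl and 0.36 in wt/wt. The median of the 6, by the probe sets with the highest mean, was 0.17 in fl/fl and 0.42 in wt/wt. By these probe sets it was the lowest of the role groups in each genotype when the symbols that name no subunit, Psmc3ip and Psme3ip1, are left out. That rank depends on the probe sets used, since Psmc2 gave 1.05 in fl/fl and 1.07 in wt/wt on 1426611_at.

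The 11 non-ATPase subunits of the 19S particle had medians of 0.64 in fl/fl and 0.67 in wt/wt. Psmd12, a subunit of the lid, had 366 in fl/fl and 264 in wt/wt at day 6, against 131 in fl/fl and 98.3 in wt/wt at day 4, differences of 1.38 and 1.29. Psmd7, which pairs with the deubiquitinase of the lid, had 288 in fl/fl and 160 in wt/wt at day 6, against 94.5 in fl/fl and 78.1 in wt/wt at day 4. It was 2-fold higher in fl/fl, at 1.46, and stood at 0.90 in wt/wt. The dimmer Psmd7 probe set 1432820_at gave -0.41 in fl/fl and 0.21 in wt/wt. Psmd13, another lid subunit, had 296 in fl/fl and 195 in wt/wt at day 6, against 188 in fl/fl and 81.2 in wt/wt at day 4. Its day difference was 0.61 in fl/fl and 1.12 in wt/wt, and the wt/wt array of day 4 was the low one. Psmd14, the deubiquitinase itself, stood at 0.84 in fl/fl and 0.82 in wt/wt, and the base scaffolds Psmd1 and Psmd2 between 0.64 and 0.75 in both genotypes. Psmd8 had 0.70 in fl/fl and 0.67 in wt/wt. Below 0 in both genotypes was the lid subunit Psmd3, at -0.34 in fl/fl and -0.28 in wt/wt. So were the ubiquitin receptor Psmd4 at -0.09 and -0.33, and the lid subunit Psmd11 at -0.01 and -0.17. Another probe set of Psmd11 differed, as given further on. For Psmd4, 1425859_a_at gave 0.52 in fl/fl and 0.27 in wt/wt, and the dimmer 1451725_a_at gave -0.01 and -0.19.

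The 4 assembly chaperones of the core had medians of 0.83 in fl/fl and 0.78 in wt/wt. Psmg2, which forms a dimer with Psmg1 on which the alpha ring is built, had 194 in fl/fl and 226 in wt/wt at day 6, against 76.1 in fl/fl and 44.9 in wt/wt at day 4. Its differences were 1.19 in fl/fl and 1.99 in wt/wt, and its day 6 arrays lay above both day 4 arrays. Psmg1 had 220 in fl/fl and 154 in wt/wt at day 6, against 110 in fl/fl and 73.5 in wt/wt at day 4, differences of 0.91 and 0.92. Psmg3 stood at 0.75 in fl/fl and 0.64 in wt/wt and its partner Psmg4 at 0.11 and -0.21. Of the chaperones of the 19S base, Psmd10 had 0.74 in fl/fl and 0.81 in wt/wt, Psmd5 0.48 and 0.55, and Psmd9 -0.03 and -0.24. None of the 3 base chaperones was 2-fold different.

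Among the activators, which open the barrel without the 19S particle, Psme4 had 561 in fl/fl and 524 in wt/wt at day 6, against 378 in fl/fl and 226 in wt/wt at day 4. It was 2-fold higher in wt/wt, at 1.16, and stood at 0.55 in fl/fl. On the dimmer probe set 1452211_at Psme4 was 2-fold higher in both, at 1.09 in fl/fl and 1.60 in wt/wt. On 1426824_at it was so in neither, at 0.55 and 0.26. Psme1, the alpha subunit of the interferon-inducible activator, had 459 in fl/fl and 483 in wt/wt at day 6, against 371 in fl/fl and 289 in wt/wt at day 4. Psme3, the nuclear activator, was dim at 105 in fl/fl and 64.3 in wt/wt at day 6, against 112 in fl/fl and 92.3 in wt/wt at day 4, and lay below 0 between the days in both genotypes, at -0.08 and -0.43. The inhibitor Psmf1 had 0.25 in fl/fl and 0.57 in wt/wt. Psme2 has no probe set of its own on the array and was not analysed here. Psmc3ip, a meiotic recombination protein, had 0.65 in fl/fl and 0.03 in wt/wt, and Psme3ip1 0.01 and 0.18.

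The day differences of the 45 genes ran alike in the genotypes, which share no array in this comparison: Pearson's r across genes was 0.79 and Spearman's rho 0.82. Over all measured genes r was 0.80, so this likeness is no larger among proteasome genes. Genes are not independent replicates, and the arrays of a day share their 5' to 3' ratio and intensity range. An additive fit in limma across all genes, with terms for genotype and day and 1 residual degree of freedom, treats the 2 genotypes of a day as replicates. It called 22 of the 45 proteasome genes higher at day 6 at an adjusted p under 0.05 (limma, Benjamini-Hochberg over 11392 genes), beside 22.8% of all genes, and none lower, beside 7.15% of all genes. The smallest adjusted p among them was 0.0052. Without adjustment 25 were higher and 1 lower at p under 0.05, as were 3479 and 1579 of all genes.

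Other multi-subunit complexes were set beside the proteasome. The TRiC/CCT chaperonin, the ring that folds actin and tubulin, had a median day difference of 0.63 in fl/fl and 0.73 in wt/wt over 8 genes. The COP9 signalosome, a relative of the 19S lid, had 0.55 in fl/fl and 0.77 in wt/wt over 9 genes. The eIF3 translation factor, which shares that lid fold as well, had 0.12 in fl/fl and 0.19 in wt/wt over 11 genes. Cct8, a chaperonin subunit, was 2-fold higher in both genotypes, at 1.73 in fl/fl and 1.60 in wt/wt, as was Cct2 at 1.27 and 1.31. Cops5, the catalytic subunit of the signalosome, stood at 1.22 in fl/fl and 1.64 in wt/wt, and Eif3m at 1.18 and 1.46. Of these complexes, 2 of 8, 2 of 9 and 3 of 11 genes were 2-fold higher in fl/fl, and 3 of 8, 2 of 9 and 1 of 11 in wt/wt. None was 2-fold lower, and no difference between the complexes was tested.

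**Figure D3:**
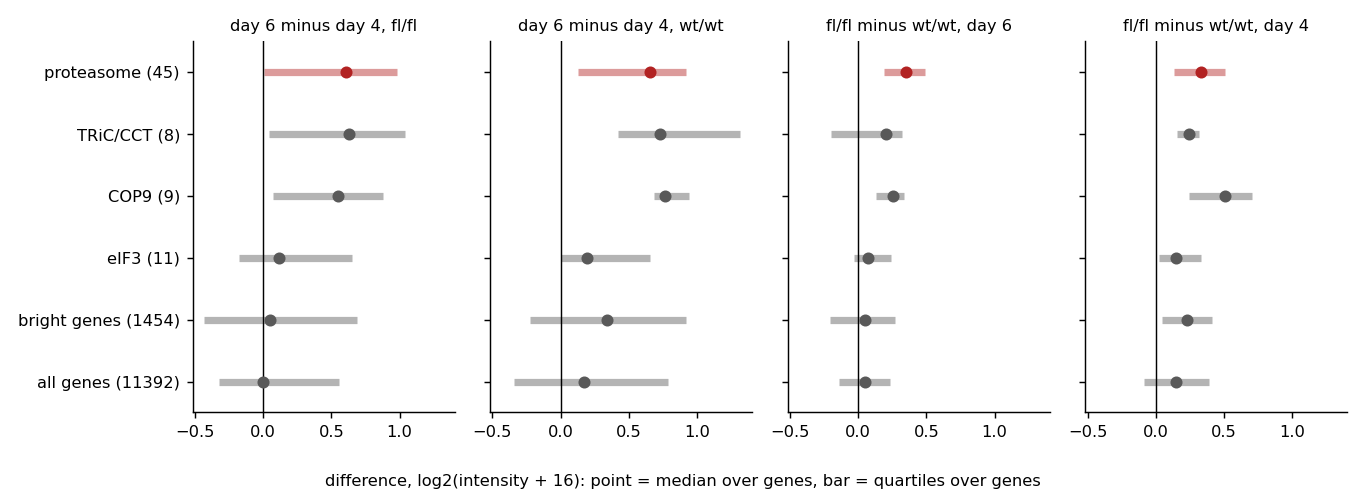
Median difference of the proteasome genes, 3 other multi-subunit complexes, the 1454 genes at least as bright as the median proteasome gene, and all measured genes, in the 4 comparisons. The x axes are differences of log2(intensity + 16), points are medians over genes and bars run between the quartiles over genes, which are not replicate errors. The proteasome and the TRiC/CCT and COP9 complexes lie right of all genes between the days, and eIF3 lies nearer to all genes.

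Other parts of the ubiquitin system were described from lists set by function. Among 11 proteasome-bound and assembly factors outside the symbol rule, the median day difference was 0.14 in fl/fl and 0.23 in wt/wt, and 3 in fl/fl and 1 in wt/wt were 2-fold higher. Pomp, the maturation factor of the core, had 812 in fl/fl and 519 in wt/wt at day 6, against 388 in fl/fl and 375 in wt/wt at day 4. Sem1, a small lid subunit with a symbol of another kind, had 1508 in fl/fl and 890 in wt/wt at day 6, against 545 in fl/fl and 464 in wt/wt at day 4. Both were 2-fold higher in fl/fl, at 1.04 for Pomp and 1.44 for Sem1, and short of it in wt/wt, at 0.45 and 0.92. On 1418574_a_at, the other Sem1 probe set, Sem1 was 2-fold higher in both genotypes, at 1.29 in fl/fl and 1.14 in wt/wt. Akirin2, which carries proteasomes into the nucleus, had 1.12 in fl/fl and 0.73 in wt/wt. Zfand5, a proteasome-binding activator, had the lowest difference of the list, -0.98 in fl/fl and -0.70 in wt/wt. The ubiquitin receptor gene Adrm1 was not among the genes with a probe set of their own.

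The 12 genes of transcriptional control had a median of -0.07 in fl/fl and 0.02 in wt/wt, with 2 and 3 genes 2-fold higher and none lower. Nfe2l1 had 103 in fl/fl and 87.8 in wt/wt at day 6, against 115 in fl/fl and 99.0 in wt/wt at day 4, a difference of -0.13 in fl/fl and -0.15 in wt/wt. NRF1 is regulated largely as a protein, which arrays do not measure. Nfe2l2, which encodes the oxidative stress factor NRF2, had 625 in fl/fl and 449 in wt/wt at day 6, against 167 in fl/fl and 131 in wt/wt at day 4, differences of 1.81 and 1.66. Of its antioxidant target list, 7 genes were measured, with a median of 0.43 in fl/fl and 0.61 in wt/wt, and 0 in fl/fl and 1 in wt/wt were 2-fold higher. Txnrd1, thioredoxin reductase, stood at 0.62 in fl/fl and 1.22 in wt/wt, and Srxn1, sulfiredoxin, at 0.43 and 0.95. The shuttle Ubqln1, which brings ubiquitin-tagged proteins to the proteasome, was 2-fold higher in both genotypes, at 1.53 in fl/fl and 1.48 in wt/wt. So were Uba6, a ubiquitin-activating enzyme, at 1.24 and 1.74, and Ube2c, the ubiquitin-conjugating enzyme of mitotic exit, at 2.18 and 1.32.

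Promoter sequence was read from RefSeq (GRCm38.p6) as the 250 bases before the transcription start, since several members were higher together. An entry matched 39 of the 47 genes. The sequences of 5 genes that were 2-fold higher at day 6 in both genotypes are shown. That of Psmb3, which was not by its brightest probe set, is shown for contrast. The other probe set of Psmb3 gave day differences of 1.55 in fl/fl and 0.81 in wt/wt. All sequences run 5′ to 3′ on the strand of the gene. Capitals mark 3 motifs on either strand: TGACNNNGC, the core of the element bound by NRF1 and NRF2, CCGGAA, the core bound by ETS factors, and CCAAT.
Psma1 promoter, chr7:114276117-114276366, minus strand: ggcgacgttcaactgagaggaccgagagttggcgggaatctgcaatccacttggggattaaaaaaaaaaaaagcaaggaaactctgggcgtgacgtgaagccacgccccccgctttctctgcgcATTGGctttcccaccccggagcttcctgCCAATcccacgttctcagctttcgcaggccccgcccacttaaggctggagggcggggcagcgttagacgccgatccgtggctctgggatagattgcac
Psma2 promoter, chr13:14612992-14613241, plus strand: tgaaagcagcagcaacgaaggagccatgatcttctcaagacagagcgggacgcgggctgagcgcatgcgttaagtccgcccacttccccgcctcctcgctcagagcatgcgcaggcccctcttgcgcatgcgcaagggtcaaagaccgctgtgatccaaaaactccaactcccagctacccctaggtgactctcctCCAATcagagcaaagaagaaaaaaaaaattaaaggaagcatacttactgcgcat
Psma5 promoter, chr3:108256676-108256925, plus strand: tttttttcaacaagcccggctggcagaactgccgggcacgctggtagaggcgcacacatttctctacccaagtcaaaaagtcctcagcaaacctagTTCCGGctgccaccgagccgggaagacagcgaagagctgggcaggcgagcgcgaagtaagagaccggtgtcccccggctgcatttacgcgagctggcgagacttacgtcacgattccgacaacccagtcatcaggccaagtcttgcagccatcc
Psmc6 promoter, chr14:45329574-45329823, plus strand: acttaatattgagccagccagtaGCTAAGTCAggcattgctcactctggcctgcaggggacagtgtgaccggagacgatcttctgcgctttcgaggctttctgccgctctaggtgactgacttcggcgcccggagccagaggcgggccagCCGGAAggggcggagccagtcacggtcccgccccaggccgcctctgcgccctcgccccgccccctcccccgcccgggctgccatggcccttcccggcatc
Psmd12 promoter, chr11:107479278-107479527, plus strand: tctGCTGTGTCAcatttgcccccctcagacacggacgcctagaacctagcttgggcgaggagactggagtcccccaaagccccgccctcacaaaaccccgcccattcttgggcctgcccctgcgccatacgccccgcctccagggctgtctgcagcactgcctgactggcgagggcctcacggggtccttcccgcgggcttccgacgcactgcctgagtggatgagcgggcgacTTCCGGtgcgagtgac
Psmb3 promoter, chr11:97703184-97703433, plus strand: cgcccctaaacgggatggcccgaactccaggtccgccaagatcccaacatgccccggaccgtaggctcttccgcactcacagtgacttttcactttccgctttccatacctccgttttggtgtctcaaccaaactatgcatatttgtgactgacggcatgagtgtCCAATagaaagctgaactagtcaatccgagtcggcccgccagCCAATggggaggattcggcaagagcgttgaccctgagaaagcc
The letters TGACNNNGC stand in Psmc6 and Psmd12 and in neither Psma1, Psma2, Psma5 nor Psmb3. Among all members they were in 5 of 39 promoters, those of Psmb5, Psmb6, Psmc6, Psmd12 and Psmd9, a share of 12.8%, beside 11.5% of 27025 promoters and 14.0% of the 9232 promoters of measured genes. CCGGAA was in 18 of the 39, a share of 46.2%, beside 13.6% of all promoters and 25.2% of those of measured genes. It stands in Psma5, Psmc6 and Psmd12 among the sequences above. CCAAT was in 15, or 38.5%, beside 37.5% of all promoters and 40.2% of those of measured genes, and it stands in Psma1, Psma2 and Psmb3. CACGTG, the E-box, was in 5 members, or 12.8%, beside 6.86% of all and 10.1% of those of measured genes, and in none of the sequences shown. A match is a description of the letters in this window and not a bound site.

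Between the genotypes, most proteasome genes were higher in fl/fl. The differences were smaller than between the days on the deposited scale, but after quantile normalization the genotype median at day 6 was 0.32 and the day median in wt/wt 0.20. Their median difference, fl/fl minus wt/wt, was 0.35 at day 6 and 0.33 at day 4, against 0.05 and 0.15 for all measured genes. For the genes at least as bright as the median proteasome gene it was 0.05 and 0.23. At day 6, 41 of the 45 had a difference above 0 (91.1%, beside 56.6% of all genes), and at day 4 also 41 (91.1%, beside 66.7%). Of the 1454 genes at least as bright as the median proteasome gene, 797 were above 0 at day 6 and 1164 at day 4. Above the median of all measured genes lay 39 of the 45 proteasome genes at day 6 and 33 at day 4. On both days 37 proteasome genes lay above 0 (82.2%, beside 38.0% of all genes). At 2-fold no proteasome gene was higher at day 6, beside 0.211%, and 1, Psmd13, was at day 4 (2.22%, beside 1.38%). None was 2-fold lower at day 6, beside 0.571%, or at day 4, beside 0.105%. None was 2-fold higher on both days, beside 0.00878%, or lower on both, beside 0.0176%.

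At 1.5-fold, 7 proteasome genes were higher in fl/fl at day 6 (15.6%, beside 3.21% of all genes) and none lower, beside 3.70%. At day 4 also 7 were (15.6%, beside 11.6%), a share near that of all genes, and none was lower, beside 1.94%. The 7 of day 6 were Psma7, Psmb2, Psmb5, Psmd7, Psmd8, Psme3 and Psmg3, and the 7 of day 4 Psmb5, Psmc3, Psmc5, Psmd8, Psmd13, Psme4 and Psmg2. The lists share Psmb5 and Psmd8. Psmb5, whose intensities stand above, differed by 0.71 at day 6 and 0.74 at day 4. Psmd8, a lid subunit, had 489 in fl/fl against 311 in wt/wt at day 6, and 294 in fl/fl against 189 in wt/wt at day 4, differences of 0.63 and 0.59. For both genes the fl/fl array was the higher at each day, though the fl/fl array of day 4 lay below the wt/wt array of day 6.

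The remaining genes of these lists passed 1.5-fold at 1 day, and no difference between the days was tested. Psmd13, the gene 2-fold higher at day 4, differed by 1.07 at day 4 and 0.56 at day 6. Psmb2 differed by 0.75 at day 6 and 0.13 at day 4, and Psmd7 by 0.79 and 0.23. Psma7, with 1026 in fl/fl against 615 in wt/wt at day 6 and 443 in fl/fl against 392 in wt/wt at day 4, differed by 0.72 and 0.17. Psmc5 had the larger difference at day 4, with 0.24 at day 6 and 0.72 at day 4, as did Psmc3, with 0.34 and 0.71, and Psme4, with 0.10 and 0.71. On 1452211_at Psme4 gave 0.01 at day 6 and 0.52 at day 4, and on 1426824_at 0.16 and -0.13. Across the 45 genes the genotype differences of the days, which share no array, gave a Pearson's r of 0.10 and a Spearman's rho of 0.03, and all genes an r of 0.02. The medians were thus alike on both days on the deposited scale, while the order of the genes was not. After quantile normalization the medians were 0.32 at day 6 and 0.12 at day 4.

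By role, medians of fl/fl minus wt/wt at day 6 were 0.49 for the alpha ring, 0.38 for the beta ring, 0.26 for the ATPases and 0.44 for the non-ATPase subunits. At day 4 they were 0.18 for the alpha ring, 0.36 for the beta ring, 0.35 for the ATPases and 0.33 for the non-ATPases. The chaperones of the core had 0.41 at day 6 and 0.52 at day 4, those of the base 0.35 and 0.42, and the activators with the inhibitor 0.15 and 0.44. The genes lower in fl/fl at day 6 were Psmc4 at -0.57, Psmd6 at -0.39, Psmg2 at -0.21 and Psme1 at -0.07, and those at day 4 were Psmb7 at -0.40, Psmc3ip at -0.25, Psmb3 at -0.05 and Psma1 at -0.01. Psmd6, a lid subunit, had 674 in fl/fl against 888 in wt/wt at day 6, and 599 in fl/fl against 554 in wt/wt at day 4. No gene was lower in fl/fl on both days.

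**Figure D4:**
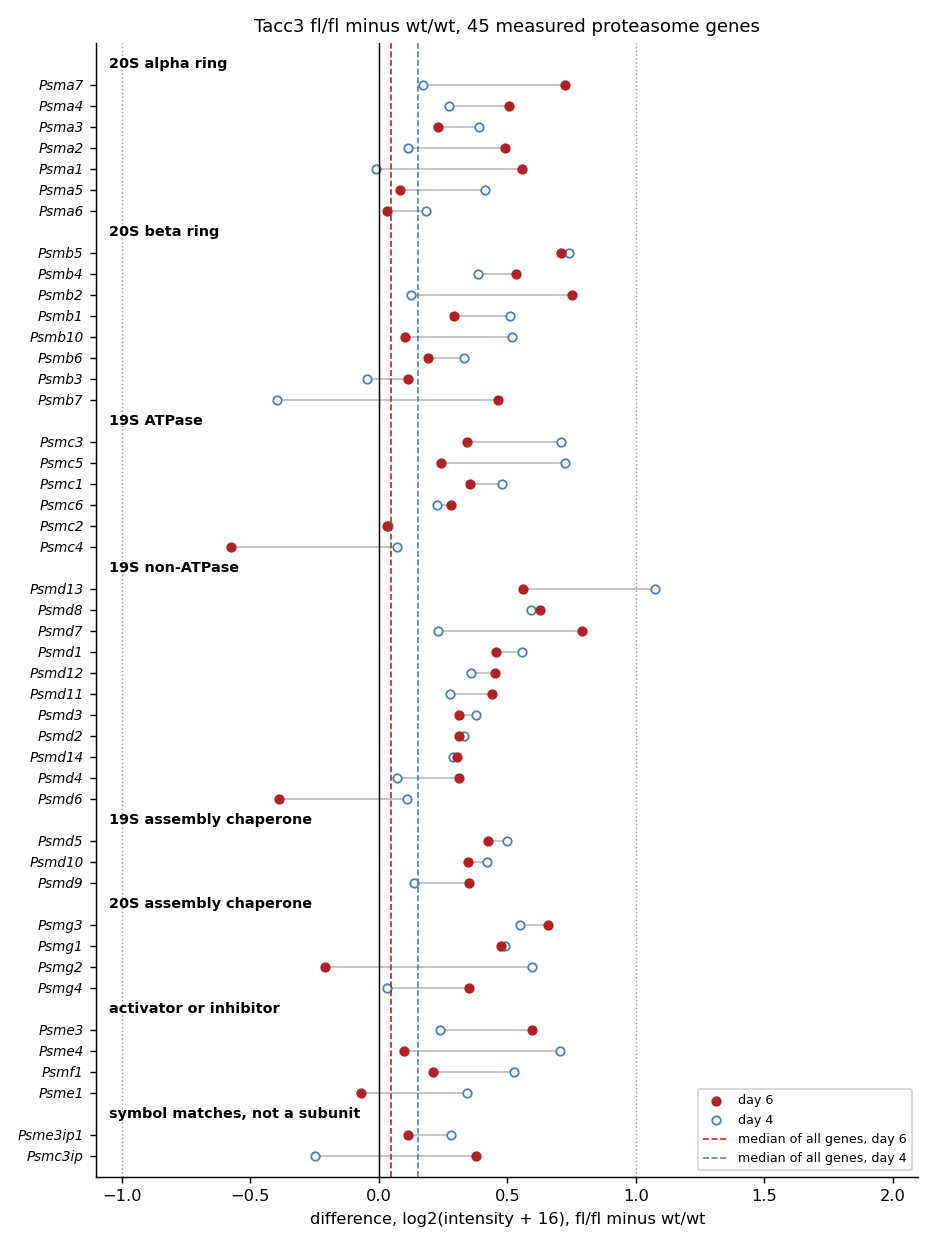
Difference between the genotypes for the 45 measured proteasome genes, grouped by role. The x axis is log2(intensity + 16) in fl/fl minus wt/wt, filled red points are day 6 and open blue points day 4, each from 1 array per genotype, dotted lines mark 2-fold, and dashed lines the median of all genes, 0.05 at day 6 and 0.15 at day 4. At each day 41 of the 45 points lie above 0, and only Psmd13 at day 4 passes 2-fold.

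Taken gene by gene, the genotype difference at day 6 minus that at day 4 had a median of -0.02, which turned to 0.15 after quantile normalization and 0.16 with each array centred on its measured genes. In the additive limma fit no proteasome gene was called by genotype, with a smallest adjusted p of 0.784 among the members that were higher in fl/fl, and 0% of all genes were called in either direction. Without adjustment, 8 of the 45 were higher in fl/fl and none lower at p under 0.05, as were 535 and 74 of all genes. Of the other complexes, TRiC/CCT had a median of 0.21 at day 6 and 0.25 at day 4, COP9 of 0.25 and 0.51, and eIF3 of 0.07 and 0.15. Among related genes, Sem1 differed by 0.75 at day 6 and 0.23 at day 4, and Pomp by 0.63 and 0.05. On the other Sem1 probe set, 1418574_a_at, the differences were 0.18 at day 6 and 0.03 at day 4. Nfe2l2 differed by 0.46 at day 6 and 0.31 at day 4, and Nfe2l1 by 0.20 and 0.18. Centring each array on its measured genes brought the day 4 median of the proteasome genes to 0.12 and left that of day 6 at 0.31.

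The values above rest on the probe set with the highest mean of each gene, and 22 of the 45 genes have further probe sets above the filter, 30 in all. Those 30 had a median day difference of 0.19 in fl/fl and 0.32 in wt/wt, and 9 in each genotype were 2-fold higher at day 6. In fl/fl 5 of them, and in wt/wt 4, ran opposite to the gene's brightest probe set with both differences at least 0.2 in size. Psma6, level by its probe set 1437144_x_at, had 667 in fl/fl and 399 in wt/wt at day 6 on 1416506_at, against 249 in fl/fl and 201 in wt/wt at day 4, differences of 1.37 and 0.94. Psmb3, lower at day 6 by 1460198_a_at, had 515 in fl/fl and 322 in wt/wt at day 6 on 1417052_at, against 165 in fl/fl and 177 in wt/wt at day 4, differences of 1.55 and 0.81. Psmc2 gave 1.05 in fl/fl and 1.07 in wt/wt on 1426611_at, where 1435859_x_at lay near 0. These genes, described above as level or lower, were higher at day 6 by the dimmer probe sets named here. A further Psma6 probe set, 1435317_x_at, was dimmer still, at 21.0 to 26.2, and gave 0.15 in fl/fl and 0.02 in wt/wt.

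The disagreement was not in that direction alone. Psmb1, 2-fold higher in both genotypes by 1448166_a_at, lay at -0.61 in fl/fl and -1.004 in wt/wt on 1420053_at, a dim probe set with 25.4 in fl/fl and 25.4 in wt/wt at day 6, against 47.3 in fl/fl and 67.1 in wt/wt at day 4. Psmg2 was 2-fold higher on both of its probe sets, and on 1425373_a_at it had 199 in fl/fl and 198 in wt/wt at day 6, against 18.6 in fl/fl and 17.3 in wt/wt at day 4. Psmd6 had day differences of 1.12 in fl/fl and 1.18 in wt/wt on 1423697_at, and its genotype difference there was 0.27 at day 6, where 1423696_a_at gave -0.39. Psmd13, the gene 2-fold higher in fl/fl at day 4 by 1422459_a_at, differed there by 0.31 on 1437220_x_at. Psmd11, near 0 between the days by 1437080_s_at, had 282 in fl/fl and 201 in wt/wt at day 6 on 1429370_a_at, against 153 in fl/fl and 39.4 in wt/wt at day 4. Its day differences there were 0.82 in fl/fl and 1.97 in wt/wt, and at day 4 the genotypes differed by 1.61, the 1 further probe set 2-fold higher in fl/fl. Between the genotypes, the 30 further probe sets had a median of 0.10 at day 6 and 0.08 at day 4, below that of the brightest ones. At day 6, 6 of them, and at day 4, 3, ran opposite to the gene's brightest probe set with both differences at least 0.2 in size. Among the genes 1.5-fold higher in fl/fl at day 6, these were Psmd7, at -0.52 on 1432820_at, and Psmg3, at -0.21 on 1430572_at. Psmb4, at 0.53 on its brightest probe set at day 6, gave -0.78 on 1438984_x_at. With all probe sets of a gene averaged, the median of the proteasome genes was 0.22 on both days between the genotypes, and 0.37 in fl/fl and 0.40 in wt/wt between the days.

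**Figure D5:**
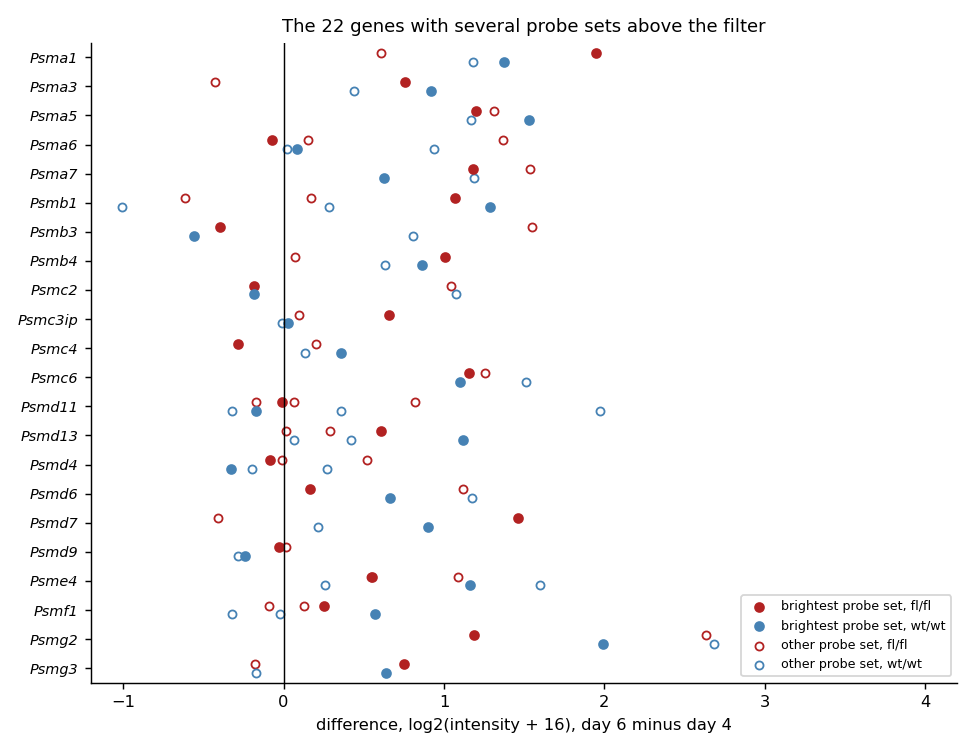
Day 6 minus day 4 differences of log2(intensity + 16) for the 22 proteasome genes with several probe sets above the filter. Filled points are the probe set with the highest mean, which the text uses, open points the others, red is fl/fl and blue wt/wt, each from 1 array per day. Psma6, Psmb3 and Psmc2 have open points right of 0.8 in both genotypes and filled points near or below 0. Psma6 also has open points at 0.15 and 0.02, whereas Psmb1 has open points at -0.61 and -1.004.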

How the data were processed

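Per the labels' protocols, RNA was purified on columns, and 100 ng gave the biotinylated cRNA that was hybridised to Affymetrix arrays. The deposited files hold 45101 probe sets on each of the 4 arrays, as intensities on a linear scale. How the authors summarised, background-corrected and normalized these intensities is not given in the sources used here.

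The intensities were used as log2(intensity + 16) with no further normalization (Python 3.11.15, pandas 2.3.3, numpy 2.4.6, matplotlib 3.10.9). The platform table gives 1 symbol to 34958 probe sets, several to 932 and none to 9211. Symbols of 34754 were updated through their Entrez ID with RefSeq (GRCm38.p6). The probe set with the highest mean stood for its gene, and genes under log2 5.04 were left out of counts. Groups came from the titles. With 1 array per group, genes were counted by fold and no p-value was computed, except in an additive limma fit (limma 3.58.1, R 4.3.3), tested on simulated data first.

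The members and the 22 gene lists were chosen with earlier results of these data known. Members named were those 2-fold in a comparison, the catalytic, activator and inhibitor genes, the extremes of each role, and the 2-fold or most different genes of the related lists. Others were named after their values were seen. Alternatives were another pseudocount, quantile normalization, centring, another filter, fold or choice of probe set, and the additive fit.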

Additional observations from a re-analysis of the deposited data

Results flagged for a closer look

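For 3 of the 45 genes, Psmb7, Psmc3ip and Psmg2, the genotypes differed in opposite directions on the 2 days, each by at least 0.2 on the log2 scale, and for Psmc4 the days did so in the 2 genotypes. Each rests on 1 array per group, and none of these differences was tested. Psmb7, the trypsin-like catalytic subunit, differed by 0.46 at day 6 and -0.40 at day 4, fl/fl minus wt/wt, which is 0.86 apart, on a probe set with intensities of 23.0 to 59.7. Psmc3ip, a meiotic recombination protein and not a subunit, differed by 0.38 at day 6 and -0.25 at day 4, which is 0.63 apart. On its further probe set, 1442058_s_at, the values were 0.11 and 0.01. Psmc4, a 19S ATPase, differed by -0.29 in fl/fl and 0.36 in wt/wt, day 6 minus day 4, which is -0.65 apart. Its further probe set, 1416291_at, gave 0.20 in fl/fl and 0.13 in wt/wt. Psmg2, an assembly chaperone of the core, differed by -0.21 at day 6 and 0.60 at day 4, which is -0.81 apart, and its further probe set gave 0.01 and 0.05.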

How the results depend on the processing

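The 4 groups hold 1 array each, so no replicate could be left out. Replicates could not be paired, since each group holds 1 array and the labels give no replicate numbers. The only pairing was by day, as the additive fit took the day as a term beside the genotype. The medians of the proteasome genes in the 4 comparisons were above 0 under every alternative run, and their sizes depended on scaling and probe set. With quantile normalization they were 0.35 in fl/fl and 0.20 in wt/wt between the days and 0.12 between the genotypes at day 4. With each array centred on its measured genes, an alternative chosen after seeing the data, they were 0.40, 0.27 and 0.12 in that order. With the mean of all probe sets they were 0.37 in fl/fl and 0.40 in wt/wt, and 0.22 between the genotypes at day 6 and 0.22 at day 4. With a pseudocount of 64 the fl/fl day median was 0.50. The median difference of the genotype differences changed sign: it was 0.15 with quantile normalization and 0.16 with centring on the measured genes, against -0.02. The 11 genes 2-fold higher at day 6 in fl/fl became 5 under quantile normalization, 5 under that centring, 5 under the mean of probe sets and 23 at 1.5-fold. The 11 in wt/wt became 2, 2, 5 and 25 under the same alternatives, and 6 with a pseudocount of 64. The 8 in both genotypes became 0, 0, 4 and 21, 3 with a pseudocount of 64, and 22 genes were called by the additive limma fit. Between the genotypes, the 1 gene 2-fold higher in fl/fl at day 4 became 0 under quantile normalization, that centring, the mean of probe sets, a pseudocount of 64 and probe sets with a plain _at name (also chosen after seeing the data), and 7 at 1.5-fold. At 1.5-fold the 0 of day 6 became 7, and 2 were higher on both days. With plain _at probe sets 1 gene was 2-fold lower at day 6 in wt/wt, and Psmb1 turned to -0.61 in fl/fl and -1.004 in wt/wt. Txnrd1 turned to -0.41 in wt/wt with the mean of probe sets. The causes of these changes were not tested beyond what each alternative does by construction. Signal over background limits Psmb7, whose intensity was 23.0 on its lowest array, near the filter of 16.9; the next lowest among the measured members was Psmg2, at 44.9.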
